A study of Mus musculus with 12 samples.

Results

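The genes of the Bcl2 family decide whether the outer membrane of the mitochondrion stays closed or opens during cell death. The 10 members described here were Bcl2l1, Mcl1, Bcl2 and Bcl2l2, which protect the cell, Bax and Bak1, which form the pores, and Bad, Bid, Bcl2l11 and Bbc3, the BH3-only genes whose proteins act on the other members. They were 10 of the 24421 genes in the count table. They were taken by name, and the family was chosen by the measured counts of Bcl2l1, which were higher both after β-catenin silencing and after β-catenin activation, so the values of Bcl2l1 in those comparisons are a description and carry no test. The question was whether the other 9 members shared this pattern.

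Pro-survival proteins such as Bcl-xL, the long product of Bcl2l1, hold the pore-forming proteins Bax and Bak in check. BH3-only proteins bind the groove of the pro-survival proteins, and some also bind Bax and Bak directly, which frees or triggers the effectors and releases cytochrome c. Many of these steps are set by phosphorylation, cleavage and protein turnover, which RNA levels do not report. In the liver, bile ducts are lined by cholangiocytes, which are exposed to bile acids and inflammatory signals, and Bcl2l1 is a known target of NF-κB and STAT factors in other cell types.

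The cells were SMCCs, an immortalized line of mouse small cholangiocytes, grown in EMEM, and every group carried a transfection. Silencing was measured in 3 libraries of cells given an siRNA against the β-catenin gene (si-Ctnnb1) and 3 given a control siRNA (si-CTL), both with Lipofectamine RNAiMAX for 24 hr. Activation was measured in 3 libraries of cells given a plasmid for the S45Y mutant of β-catenin, which is stable (S45Y), and 3 given an eGFP plasmid (eGFP), both with Lipofectamine 3000 for 48 hr. All 12 libraries were made from total RNA of this single line, so they describe 1 cell line and not bile ducts, and nothing in the labels says that libraries of a group came from separate cultures. The p-values therefore measure the spread between these samples, which may be technical.

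The libraries were shallow. Totals were 221767 to 326686 counts with si-CTL, 295677 to 313074 with si-Ctnnb1, 113481 to 122304 with eGFP and 91468 to 117419 with S45Y, and between 1510 and 3846 genes per library reached 10 counts. Ctnnb1 itself, the targeted gene, was counted 13, 38 and 28 times with si-CTL and 0, 11 and 3 times with si-Ctnnb1. The log2 fold change by edgeR was -2.54 with a standard error of 0.55 and an adjusted p of 0.00491. The adjusted p was 0.101 when si-CTL replicate 2 was dropped and 0.0750 when si-Ctnnb1 replicate 3 was dropped, with log2 fold changes of -2.31 and -2.30. With 1 library left out, the log2 fold change ran from -4.08 without si-Ctnnb1 replicate 2 to -1.98 without si-Ctnnb1 replicate 1. In activation Ctnnb1 was at 0.51 on the log2 scale (adjusted p = 0.989). Ulk4, which lies on the other strand, shares 759 exon bases with Ctnnb1 and had 129 counts over the 12 libraries against 153 for Ctnnb1. Of 14 cholangiocyte markers, 11 had a count, among them Krt8, Krt18, Krt19 and Spp1, while Epcam, Cftr and Aqp1 had none in any library. Their summed level was 985 to 1329 CPM (counts scaled to the TMM-adjusted library size) in the si-CTL libraries and 886 to 964 with si-Ctnnb1. The defining hepatocyte and immune genes Alb, Apoa1, Ttr, Ptprc, Adgre1 and Cd3e were at 0. The summed level of the 10 immune markers, of which 4 had a count, was nevertheless 91.4 to 140 CPM with si-CTL and 165 to 197 CPM with si-Ctnnb1, and that of the 10 hepatocyte markers, of which 4 had a count, was 8.11 to 34.1 CPM in eGFP and 68.1 to 104 CPM in S45Y. Rn45s, the ribosomal RNA precursor, took 3.64% to 5.49% of counts with si-CTL and 1.61% to 2.44% with si-Ctnnb1, without overlap, and 10.03% to 15.38% with eGFP and 10.21% to 15.03% with S45Y, which overlapped. Removing it before scaling left the log2 fold change in silencing at 1.32 for Bcl2l1 and 0.62 for Bad. Whether the marker differences had a part in the results below was not tested.

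The 10 members together received 31 to 112 counts per library. The strand setting of the counting is not given, and whether it had a part in these low counts was not tested. A gene without counts may have had up to 3 in that library, which was 8.96 to 13.4 CPM in the siRNA libraries and 24.3 to 34.0 CPM in the plasmid libraries. These limits and all intervals of counts cover counting error only. In bulk RNA, fewer cells that express a gene and less of its RNA per cell cannot be told apart.

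Bcl2l1, on the minus strand of chromosome 2 (mm10, chr2:152780668-152831728), shares no exon bases with another annotated gene. The si-CTL libraries held 10, 9 and 9 counts of it and the si-Ctnnb1 libraries 24, 21 and 32. Every silenced library was above every control library in CPM as well, at 66.4 to 102 against 26.9 to 44.6. The eGFP libraries held 0, 2 and 7 counts and the S45Y libraries 9, 9 and 14, and here too the groups did not overlap, at 93.9 to 120 CPM in S45Y against 0 to 64.8 in eGFP. In eGFP replicates 1 and 2, Bcl2l1 at 0 and 16.2 CPM lay under the limits of a zero count, 25.6 and 24.3 CPM. The mean level was 82.9 ± 17.7 CPM after silencing against 33.6 ± 9.58 in its control, and 105 ± 13.5 after activation against 27.0 ± 33.7 in its control (SD, n = 3 each). The fitted log2 fold change was 1.32 (standard error 0.42) for silencing and 2.0 (standard error 0.72) for activation.

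The difference of Bcl2l1 depended less on single libraries in silencing than in activation. Leaving out each library in turn kept the log2 fold change of silencing between 1.15 and 1.55. In activation it moved between 1.40 without eGFP replicate 1, the library with no Bcl2l1 count, and 3.51 without eGFP replicate 3, which held 7 of the 9 eGFP counts. Once that library was left out, the value rested on 2 control counts.

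The start sites of Bcl2l1 are shown because this gene alone among the members was higher without overlap in both comparisons, and those of Bad because it was the member with the highest level per length. The windows come from RefSeq on GRCm38.p6 and run from upstream of a start site to just past it, 5′ to 3′ on the strand of the gene. Capitals mark matches to an NF-κB motif, GGGNNNNNCC on either strand. The windows lie at chr2:152830668-152830967 on the minus strand, at an internal start of Bcl2l1, at chr2:152831679-152831978 on the minus strand, around the outermost Bcl2l1 start, and at chr19:6941611-6941910 on the plus strand, at the first start of Bad.
Bcl2l1, internal start: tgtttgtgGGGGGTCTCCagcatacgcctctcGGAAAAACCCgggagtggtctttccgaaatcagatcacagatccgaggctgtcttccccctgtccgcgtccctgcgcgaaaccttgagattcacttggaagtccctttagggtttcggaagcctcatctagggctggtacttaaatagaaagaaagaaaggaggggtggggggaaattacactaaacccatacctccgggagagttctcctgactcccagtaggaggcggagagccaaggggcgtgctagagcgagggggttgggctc
Bcl2l1, outermost start: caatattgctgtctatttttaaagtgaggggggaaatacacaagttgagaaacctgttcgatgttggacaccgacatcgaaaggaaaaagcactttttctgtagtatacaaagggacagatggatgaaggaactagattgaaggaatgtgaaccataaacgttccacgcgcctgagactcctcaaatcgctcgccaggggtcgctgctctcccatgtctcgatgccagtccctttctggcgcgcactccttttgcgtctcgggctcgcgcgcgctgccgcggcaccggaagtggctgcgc
Bad, first start: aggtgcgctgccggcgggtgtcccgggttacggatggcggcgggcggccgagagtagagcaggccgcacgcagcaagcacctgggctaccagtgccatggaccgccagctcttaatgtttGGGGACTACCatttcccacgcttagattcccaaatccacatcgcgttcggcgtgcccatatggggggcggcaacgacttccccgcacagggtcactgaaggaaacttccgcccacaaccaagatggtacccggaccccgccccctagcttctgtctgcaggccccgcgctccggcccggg

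The internal Bcl2l1 window held 2 matches, at bases 9 to 18 and 33 to 42, while the outermost window and the remaining Bcl2l1 window held none. The first Bad window held 1 match, at bases 121 to 130, and a second Bad window held 3, of which 2 overlap. RefSeq gave 16 such windows for the 10 members, of which 14 held the motif, at least 1 for every member. The motif is loose and rich in G and C, and 50.8% of all 32851 windows of this length held it. A TCF/LEF motif, CTTTGAT, the site through which β-catenin acts on its target genes, was found on neither strand in any of the 16 windows, where 3.73% of all windows held it. A STAT motif, TTCNNNGAA, was also absent from these windows, against 8.3% of all windows. A match is a description of the letters, and its absence says only that these letters were not in these windows.

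**Figure D1:**
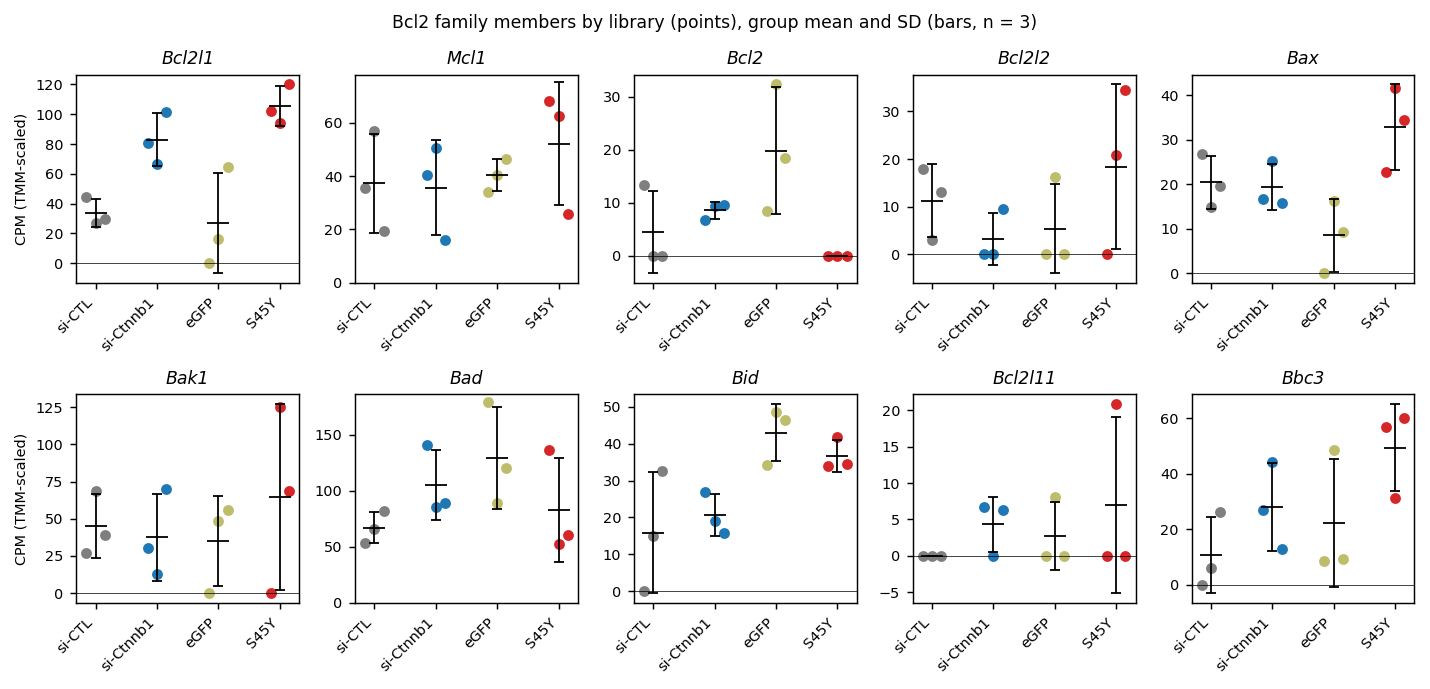
Level of each of the 10 members (CPM, scaled by TMM) for the 4 groups. Points are the 3 libraries of a group, the horizontal mark is their mean and the bar their SD. Bcl2l1 stands above its control in both si-Ctnnb1 and S45Y, while for most other members the points of treated and control libraries overlap.

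The other pro-survival members had few counts, and none was called. Mcl1, whose short-lived protein holds Bak in check, was counted 8, 19 and 6 times with si-CTL and 12, 16 and 5 times with si-Ctnnb1. It was counted 4, 5 and 5 times with eGFP and 6, 6 and 3 times with S45Y. The groups overlapped in both comparisons. Its log2 fold change in silencing was -0.09 (standard error 0.53, adjusted p = 0.970 by edgeR), and its sign turned when si-CTL replicate 2 or si-Ctnnb1 replicate 3 was left out. In activation Mcl1 had too few counts for the fit, and its mean level was 52.2 ± 23.0 CPM in S45Y and 40.3 ± 6.10 in eGFP (two-sided exact permutation test, p = 0.6).

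Bcl2, the founding member, was close to the limit of detection. It was counted 3, 0 and 0 times with si-CTL and 2, 3 and 3 times with si-Ctnnb1, all at or under the 3 counts that a zero allows, so no fold is given. It had 1, 4 and 2 counts in eGFP and none in the 3 S45Y libraries. The plasmid groups did not overlap, but in the direction opposite to Bcl2l1 (two-sided exact permutation test, p = 0.1, the smallest p of 3 libraries against 3), and 1 eGFP library alone was above the limit. Bcl2l2, which encodes Bcl-w, was counted 4, 1 and 4 times with si-CTL, 0, 0 and 3 times with si-Ctnnb1, 0, 2 and 0 times with eGFP and 0, 2 and 4 times with S45Y. Its mean was lower in si-Ctnnb1 and higher in S45Y than in the controls, with overlap in both (exact permutation p = 0.2 and 0.4). Bcl2l2 shares 594 exon bases with Gm20521 on the same strand, and Bcl2 shares 558 with D630008O14Rik on the opposite strand. Neither partner is among the counted genes.

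The pore-forming effectors had few counts and were not called. Bax, whose protein moves from the cytosol to the mitochondrion, was counted 6, 5 and 6 times with si-CTL and 5, 8 and 5 times with si-Ctnnb1, with means of 20.4 ± 5.95 and 19.3 ± 5.20 CPM (SD, n = 3 each; two-sided exact permutation test, p = 0.8). In the plasmid libraries it was counted 0, 2 and 1 times with eGFP and 2, 4 and 4 times with S45Y. After scaling for depth the S45Y libraries, at 22.7 to 41.8 CPM, were all above the eGFP libraries, at 0 to 16.2 CPM (exact permutation p = 0.1). All eGFP values lay under the limit of a zero count, and Bax could not be told from its control at this depth. The exons of Bax share 192 bases with Gm45808 on the same strand, which is not among the counted genes. Bak1, which sits in the mitochondrial membrane, was uneven between libraries of a group. It had 6, 23 and 12 counts in si-CTL against 9, 4 and 22 in si-Ctnnb1, and 0, 6 and 6 in eGFP against 0, 12 and 8 in S45Y. Its libraries overlapped in both comparisons, with a log2 fold change of -0.30 in silencing (standard error 0.51, adjusted p = 0.890 by edgeR) that turned positive once replicate 2 of si-CTL or replicate 2 of si-Ctnnb1 was left out. Its exons share bases with 2 annotated Ggnbp1 genes on the opposite strand, 437 with one and 177 with the other, and Ggnbp1 had 13 counts over the 12 libraries. In activation Bak1 was at 64.7 ± 62.7 CPM in S45Y and 34.7 ± 30.3 in eGFP (exact permutation p = 0.6).

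Bad carried more counts over the 12 libraries than any other member, although Bcl2l1 had 32 and Bad 24 over the S45Y libraries. Its level was at a mean of 26.2 CPM per kilobase of exon with si-CTL, 41.1 with si-Ctnnb1, 50.7 with eGFP and 32.4 with S45Y. Its protein binds Bcl-xL and Bcl-2 and is held in the cytosol by 14-3-3 proteins when phosphorylated. It was counted 12, 22 and 25 times with si-CTL and 42, 27 and 28 times with si-Ctnnb1, and every silenced library was higher than every control, at 85.4 to 141 CPM against 53.5 to 81.6. Silencing gave Bad a log2 fold change of 0.62 (standard error 0.33), which did not pass the test over all genes (unadjusted p = 0.0654, adjusted p = 0.442 by edgeR). The value was 0.37 without si-Ctnnb1 replicate 1, which held 42 of the 97 counts. In activation it was counted 21, 11 and 13 times with eGFP and 12, 5 and 7 times with S45Y. The groups overlapped, and Bad was at -0.64 on the log2 scale (standard error 0.52, adjusted p = 0.977 by edgeR), moving to -1.17 without S45Y replicate 1 and to -0.35 without eGFP replicate 1.

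Bad and Bcl2l1 were thus both higher without overlap after silencing, and in activation Bad had the lower mean while Bcl2l1 had the higher. The control levels of Bad differed, with means of 66.9 CPM in si-CTL and 130 in eGFP, beside 105 in si-Ctnnb1 and 82.8 in S45Y. Reagent, cargo, time and depth all differ between the comparisons and cannot be told apart. The difference between the effects, activation minus silencing, was -1.32 for Bad on the log2 scale (standard error 0.59, 95% interval -2.48 to -0.17). Its unadjusted p was 0.0274 and its adjusted p was 0.387 by edgeR over 2996 genes, so the difference did not pass. The same quantity was 0.66 for Bcl2l1 (standard error 0.84, no test), 0.39 for Mcl1 (standard error 0.96, adjusted p = 0.955) and 1.17 for Bak1 (standard error 0.99, adjusted p = 0.745). The value of Bcl2l1 was 0.10 when eGFP replicate 1 was left out and 2.25 when eGFP replicate 3 was left out. Every library left out in turn kept the Bad difference negative, between -1.83 and -0.99. Of all genes fitted, 16 were called for a difference of effects (0.534%), and none was a member, with Bad the one tested member at an unadjusted p below 0.05 against 9.88% of all genes.

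The counts of Bad may include reads of another gene. The exons of Bad (chr19:6941861-6951899, plus strand) share 524 bases, 20.5% of their length, with those of Gpr137 on the opposite strand, and the strand setting of the counting is not given in the sources used here. Gpr137 was counted 9, 16 and 15 times with si-CTL and 17, 23 and 26 times with si-Ctnnb1, so its libraries did not overlap either. Its level was 67.6 ± 50.5 CPM in eGFP and 78.4 ± 21.5 in S45Y, with overlap. Whether shared reads had a part in the Bad values was not tested.

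The remaining BH3-only genes were near the limit. Bid, which caspase-8 cleaves to link death receptors with mitochondria, was counted 0, 5 and 10 times with si-CTL and 8, 6 and 5 times with si-Ctnnb1, and 4, 6 and 5 in eGFP and 3, 4 and 4 in S45Y, with overlap throughout (exact permutation p = 0.6 and 0.3). Its exons share 628 bases with Bcl2l13 on the opposite strand, which had 443 counts over the 12 libraries against 60 for Bid. Bbc3, which encodes the p53 target PUMA, was counted 0, 2 and 8 times with si-CTL and 8, 14 and 4 times with si-Ctnnb1. It had 1, 6 and 1 in eGFP and 5, 3 and 7 in S45Y. Its mean was higher in both treated groups, at 27.9 ± 15.8 against 10.7 ± 13.7 CPM in silencing and 49.4 ± 15.7 against 22.1 ± 22.9 CPM in activation, but the libraries overlapped in each (exact permutation p = 0.2 in both). Bcl2l11, which encodes BIM, had no count with si-CTL, 2, 0 and 2 with si-Ctnnb1, 0, 1 and 0 with eGFP and 0, 2 and 0 with S45Y, and was not measurable at this depth.

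**Figure D2:**
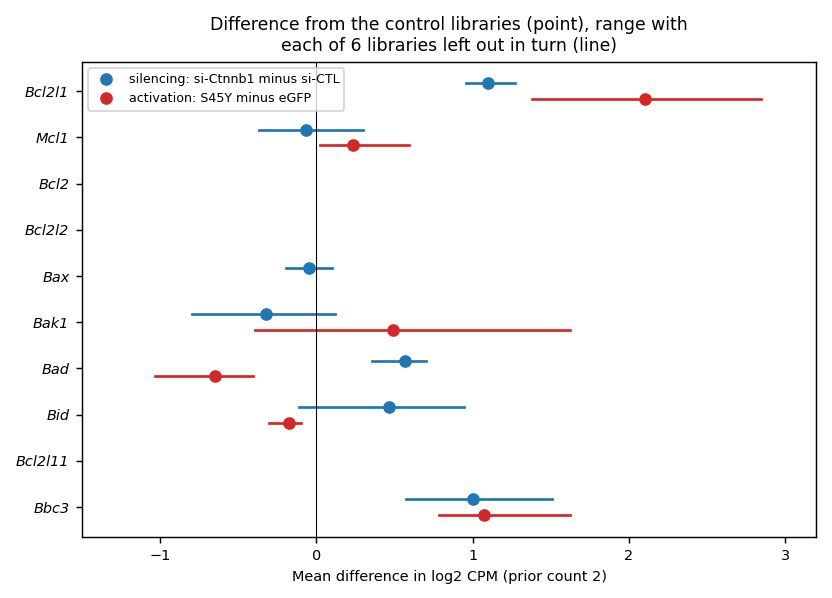
Mean difference in log2 CPM (prior count 2) of the treated from the control libraries for each member (silencing in blue, activation in red). Points are the value over 6 libraries and lines the range with each library left out in turn. Members with 3 or fewer counts in every library of a group are not drawn for that comparison. The Bcl2l1 lines stay above 0 in both comparisons, Bbc3 does so with overlapping libraries, and the lines of Bad lie on opposite sides of 0.

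Over the family, silencing left 4 members with enough counts for the fit (Bcl2l1, Mcl1, Bak1 and Bad), and activation left 2 (Bcl2l1 and Bad). Of the 9 members other than Bcl2l1, none was called at an adjusted p below 0.05 by edgeR, which fitted 3 of them in silencing and 1 in activation, and none of those fitted had an unadjusted p below 0.05. DESeq2 called none in activation. In silencing it gave an adjusted p to 928 genes, with 0 of the 10 members among them, and so bears on no member there. The background was 54 of 3484 genes called in silencing (1.55%) and 0 of 1819 in activation (0%), where 107 genes (5.88%) had an unadjusted p below 0.05 and DESeq2 also called 0. In silencing, 2 of the 10 members, Bcl2l1 and Bad, were higher without overlap, where 4.63% of the 13362 genes with a count were, and none was lower without overlap, where 5.15% were. Among the 3484 genes fitted, which carry more counts as these 2 members do, 9.16% were higher without overlap. In activation, Bcl2l1 and Bax were higher without overlap, where 3.5% of 12569 genes with a count and 5.33% of those fitted were, and Bcl2 was lower, where 3.19% were. Bcl2l1 fixed part of these counts by the way the family was chosen. Higher without overlap in both comparisons were 25 of 11557 genes (0.216%), or 9 of the 1804 genes fitted in both (0.499%), and Bcl2l1 was the only member among them.

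By mean level alone, and leaving out Bcl2l1, which was chosen for being higher in both, 5 of 9 members were higher after silencing, against 48.8% of all genes with a count, and 6 of 9 after activation, against 49.7%. Besides Bcl2l1, Bbc3 and Bcl2l11 had the higher mean in both, as 23.7% of genes had, and Bcl2l11 was not measurable. Bad, Bcl2 and Bid were higher in si-Ctnnb1 and lower in S45Y than in the controls (24.8% of genes), and Mcl1, Bcl2l2, Bax and Bak1 lower in si-Ctnnb1 and higher in S45Y (26.1%). These directions include members whose libraries overlapped. Leaving out 1 library turned the sign of Mcl1, Bid, Bax and Bak1 in silencing and of Bak1 and Bcl2l11 in activation. No pattern by role is read from them.

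Ordered by level per kilobase of exon, Bad was first in every group. Bad exceeded the next member by more than the SDs in si-Ctnnb1, where Bcl2l1 followed at 18.1 ± 3.86 CPM per kilobase, and in eGFP, where Bak1 followed at 14.4 ± 12.6, but not in si-CTL and S45Y, where Bak1 followed at 18.6 ± 8.95 and 26.9 ± 26.1. Bcl2l1 was 5th in si-CTL at 7.33 ± 2.09, 2nd in si-Ctnnb1, 6th in eGFP at 5.89 ± 7.36 and 4th in S45Y at 23.0 ± 2.94. Its neighbours in S45Y, Bbc3 at 23.3 ± 7.41 and Bax at 20.9 ± 6.10, did not differ from it beyond their spread. The lowest members were Bcl2, Bcl2l2 and Bcl2l11 in every group. Among the pro-survival genes, the mean of Bcl2l1 was below that of Mcl1 per kilobase in both control groups, at 10.9 ± 5.45 for Mcl1 in si-CTL and 11.8 ± 1.78 in eGFP, and above it in both treated groups, where Mcl1 was at 10.4 ± 5.22 and 15.3 ± 6.73. Single libraries departed from these means, with a ratio of Bcl2l1 to Mcl1 per kilobase of 1.12 in si-CTL replicate 3, 1.04 in eGFP replicate 3 and 0.978 in si-Ctnnb1 replicate 2. The order of this pair follows in part from the choice of Bcl2l1.

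The share of the family's counts that fell on Bcl2l1 is a description, since Bcl2l1 was chosen for being higher. Bcl2l1 made up 14.0% ± 5.53 of the 10 members' counts with si-CTL and 24.0% ± 4.64 with si-Ctnnb1, 7.31% ± 9.10 with eGFP and 23.6% ± 4.19 with S45Y (SD, n = 3 each). The range was 10.5% to 20.4% in si-CTL and 21.2% to 29.4% in si-Ctnnb1, and 0% to 17.5% in eGFP and 19.1% to 27.5% in S45Y. The eGFP library at 0 had 31 member counts, which allows a share of up to 9.68%. All pro-survival genes together took 36.2% ± 13.8 in si-CTL and 37.9% ± 3.50 in si-Ctnnb1, which overlapped, and 26.7% ± 9.63 in eGFP and 39.3% ± 2.73 in S45Y, where every S45Y library was above every eGFP library. Without Bcl2l1 the pro-survival share was 22.1% ± 9.11 against 13.9% ± 4.72 in silencing and 19.4% ± 4.46 against 15.7% ± 1.72 in activation, lower in the treated group on average with overlapping libraries. Bad made up 27.1% ± 3.63 with si-CTL and 30.2% ± 6.41 with si-Ctnnb1, and 41.6% ± 23.0 with eGFP and 18.9% ± 11.8 with S45Y, a larger gap in means than that of Bcl2l1 in activation but with overlap in both comparisons.

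The summed counts of the members were higher in the treated libraries, a sum that holds Bcl2l1. The summed CPM, taken before TMM scaling, was 221 to 270 with si-CTL and 317 to 379 with si-Ctnnb1. It was 262 to 368 with eGFP and 405 to 491 with S45Y, and the groups overlapped in neither comparison. Leaving out Bcl2l1, the ranges were 176 to 240 and 246 to 298 in silencing, still apart, and 262 to 352 and 306 to 397 in activation, which overlapped. Bad had 97 counts over the si-Ctnnb1 libraries and 59 over the si-CTL libraries. With both genes left out, a choice made after seeing the data, the other 8 members summed to 122 to 168 with si-CTL and 156 to 163 with si-Ctnnb1, and to 84.5 to 262 with eGFP and 175 to 344 with S45Y, which overlapped in both comparisons.

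**Figure D3:**
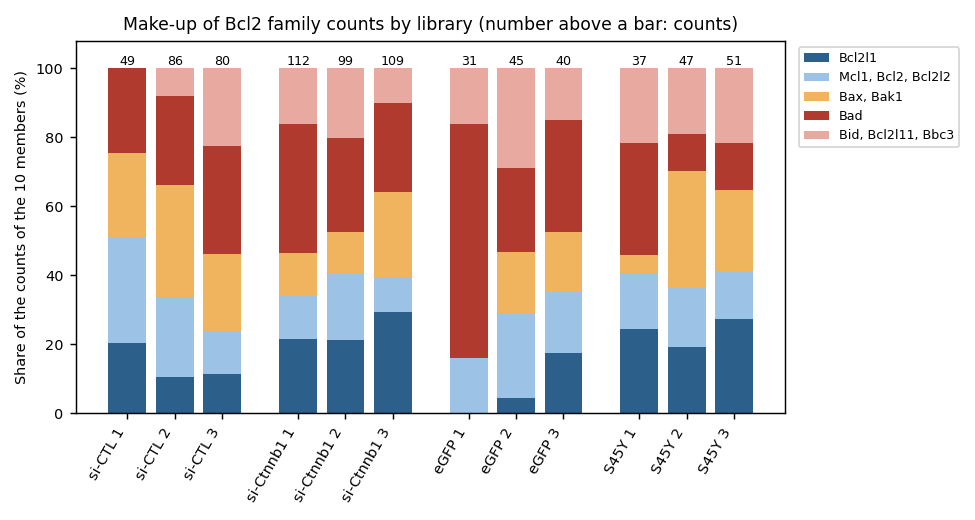
Share of each library's Bcl2 family counts (percent) that fell on Bcl2l1, the other pro-survival genes, the effectors, Bad and the other BH3-only genes. Each bar is 1 library and the number above it is its total of member counts, 31 to 112. The Bcl2l1 segment is larger in every si-Ctnnb1 and S45Y library than in its controls.

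The control groups were also compared with each other, because this contrast did not choose the members, although it uses the same control libraries. Reagent, cargo, time and depth all differ between eGFP and si-CTL and cannot be told apart. Of 2459 genes fitted, 415 (16.9%) were called by edgeR. Bad was the one member with enough counts, with a log2 fold change of 0.98, eGFP against si-CTL (standard error 0.42, adjusted p = 0.104 by edgeR), and was not called. Bad and Bid were higher in eGFP without overlap, at 130 ± 45.7 against 66.9 ± 14.1 CPM and 43.0 ± 7.79 against 15.9 ± 16.3 CPM (SD, n = 3 each; exact permutation p = 0.1 for each), where 6.57% of 13222 genes with a count and 13.7% of those fitted were. Bcl2l1 overlapped between the controls, at 27.0 ± 33.7 CPM in eGFP and 33.6 ± 9.58 in si-CTL, a description with no test, since these values took part in its choice. The control contrast of Bad ran, over the 6 fits that drop 1 library, from 0.63 without eGFP replicate 1 (adjusted p = 0.465 by edgeR) to 1.14 without eGFP replicate 2.

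Genes around the family were described by 7 further lists. Among 15 other family genes, 4 had no count in any library, 2 could be fitted in silencing and 1 in activation, and none was called. Bcl2l13, a mitochondrial receptor for autophagy, was at 155 ± 40.4 CPM with si-CTL and 192 ± 38.9 with si-Ctnnb1 (log2 fold change 0.30, standard error 0.24, adjusted p = 0.698 by edgeR). Bcl2l15 was at 47.4 ± 19.2 and 64.7 ± 9.30 CPM (log2 fold change 0.40, adjusted p = 0.777). Of 14 genes of the apoptosome and the caspases, which act after cytochrome c is released, 2 could be fitted in silencing and 1 in activation, and none was called. Endog, a mitochondrial nuclease, had a log2 fold change of 0.36 in silencing (standard error 0.18, adjusted p = 0.398 by edgeR) and -0.56 in activation (standard error 0.38, adjusted p = 0.961). Its exons share 379 bases, 35.65% of their length, with Spout1 on the opposite strand. Whether shared reads had a part in the Endog values was not tested. Aifm1, which encodes apoptosis-inducing factor, had 0.76 in silencing (standard error 0.49, adjusted p = 0.567).

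None of the 10 inhibitor of apoptosis genes was called, and Birc6 was the single one fitted, with a log2 fold change of 0.07 in silencing (standard error 0.43, adjusted p = 0.973 by edgeR). The 15 death receptor genes were all too low to be fitted. Of 14 genes of p53 and its apoptosis targets, 4 could be fitted in silencing and 3 in activation. None was called in either, and the log2 fold changes of Trp53bp1, Gadd45a, Trp53inp1 and Ccng1 in silencing were -0.10, -0.06, 0.15 and -0.57. On the opposite strand, Tubgcp4 shares 2130 exon bases with Trp53bp1, and E230016M11Rik shares 337 with Gadd45a. Whether shared reads had a part in their values was not tested. Between the controls, Gadd45a and Trp53inp1 were lower in eGFP than in si-CTL, with log2 fold changes of -1.21 and -1.05 (adjusted p = 0.000131 and 0.0189 by edgeR). Trp53inp1 was not called with eGFP replicate 3 left out (adjusted p = 0.0913) or with si-CTL replicate 3 left out (adjusted p = 0.0524).

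The partners of the Bcl2 proteins and the genes of their turnover were better covered, with 19 of 31 fitted in silencing and 8 in activation. No gene was called, and the median log2 fold change was -0.18 in silencing and 0.22 in activation, beside -0.00 and 0.02 over all genes fitted. Huwe1, a ubiquitin ligase that marks Mcl-1 for degradation, was at 140 ± 43.7 CPM with si-CTL and 84.9 ± 43.2 with si-Ctnnb1 (log2 fold change -0.75, standard error 0.31, adjusted p = 0.276 by edgeR). The 14-3-3 gene Ywhae, of a family whose proteins hold phosphorylated Bad, had -0.54 in silencing (standard error 0.26, adjusted p = 0.374), while its relative Ywhaz had 0.41 (standard error 0.30, adjusted p = 0.640). Bag1, which encodes a partner of Bcl-2, had -0.18 (standard error 0.26, adjusted p = 0.856).

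Bcl2l1 makes a long, protective product and a short, death-promoting one by alternative splicing, and a count per gene does not separate them. Of 16 regulators of this splicing, 9 could be fitted in silencing and 5 in activation, none was called, and the medians were -0.08 and 0.06. Rbm25 had a log2 fold change of 0.07 in silencing and 0.23 in activation (adjusted p = 0.844 and 0.961 by edgeR). Rbm10 had 0.56 in silencing (adjusted p = 0.310), and Srsf1 and Hnrnpk had 0.15 and -0.08 (adjusted p = 0.891 and 0.951).

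**Figure D4:**
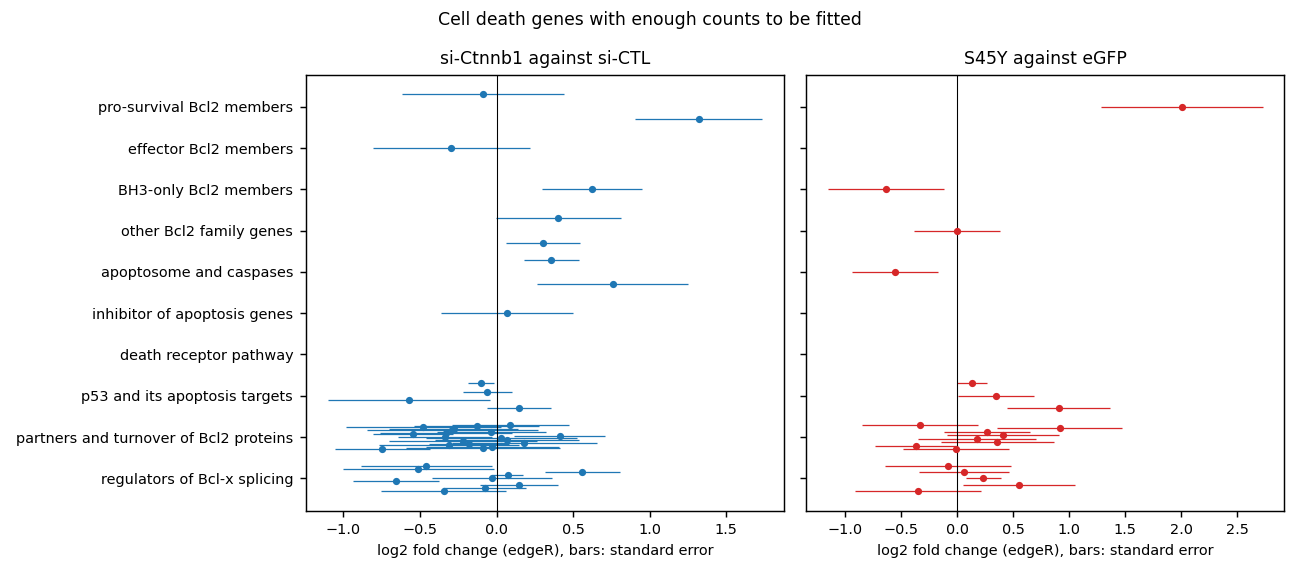
Log2 fold change (edgeR, x axis) of every gene that could be fitted in each list of cell death genes, with standard errors as bars, in silencing (left) and activation (right). Each point is 1 gene. Bcl2l1, at 1.32 and 2.0, lies to the right of the other points in both panels, a place that follows in part from its choice.

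As a description of which genes varied with Bcl2l1, the log2 CPM of 1803 genes fitted in both comparisons was set against that of Bcl2l1 over the 12 libraries, which share depth and transfection within groups. The highest Pearson r was that of Rassf7 (0.91), followed by 2200002D01Rik (0.85), Zrsr2 (0.85), Bysl (0.83) and Dtnb (0.80). With group means removed, r was 0.24 for Rassf7 over the 6 silencing libraries and 0.91 over the 6 activation libraries, and it was -0.27 and 0.78 for Bysl. Within activation Bcl2l1 varied most among the 3 eGFP libraries, with 0, 2 and 7 counts. Among the members r over the 12 libraries was highest for Bax (0.74) and lowest for Bad (-0.34). For the members, r with group means removed was not taken, and Bax had 0, 2 and 1 counts in eGFP. Each r over the 12 libraries includes the group differences by which Bcl2l1 was chosen, so no shared pattern is read from it.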

How the data were processed

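RNA-seq libraries of SMCCs were used as the authors deposited them, as whole-number counts per gene symbol without normalization, with replicates kept apart. Per the submitters' processing notes, Trimmomatic 0.38, HISAT2 2.1.0, HTSeq 0.11.2 and mm10 were used. The gene annotation and strand setting are not given in the sources used here, and reads of genes that overlap on opposite strands may therefore be mixed. A wrong strand setting would bear on the counts of every gene, and this was not tested. Bax and Bcl2l2 also share exon bases with genes on the same strand. Gene positions and exon lengths were taken from GENCODE M21 on mm10.

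Libraries were grouped by their titles. The fits used edgeR 4.0.16 under R 4.3.3 (TMM, filterByExpr with a minimum count of 10 and a minimum total count of 15, quasi-likelihood test, Benjamini-Hochberg adjustment over all genes tested, called below 0.05), and with DESeq2 1.42.0 as an alternative. For single members the mean difference in log2 CPM (prior count 2) was tested by exact permutation, two-sided, which cannot give less than p = 0.1 here. CPM is TMM-scaled and covers counting depths of 91468 to 326686 counts. The code was tested on simulated data.

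The members and the gene lists were chosen with earlier results of these data known. Named were the 10 members, Ctnnb1, overlapping genes, list genes with an adjusted p below 0.05 in any comparison and otherwise up to 4 per list with the highest mean CPM among those tested in silencing, and the 5 genes most like Bcl2l1. Alternatives were other size factors and filters, a joint fit over the 12 libraries, a block for the replicate number, prior counts of 0.5 and 5, removal of Rn45s (the ribosomal RNA precursor) and each library left out in turn.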

Additional observations from a re-analysis of the deposited data

How the results depend on the processing

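None of the 9 members other than Bcl2l1 was called at an adjusted p below 0.05 in silencing, activation or the difference of effects under any alternative that gave it an adjusted p, and no member was called between the controls. Log2 fold changes of Mcl1 and Bak1 in silencing changed sign when a library was left out, with ranges of -0.43 to 0.39 and -1.10 to 0.16. The genes called over the whole table numbered 31 to 49 in silencing and 5 to 22 for the difference of effects with each library left out, against 54 and 16 with all, and 312 to 383 between the controls against 415. With a stricter filter on low counts 1 gene was called in activation, against 0. With the replicate number as a block, edgeR called 64 genes in silencing, 0 in activation, 373 between the controls and 17 for the difference of effects, and no member's call changed. Deviations of same-numbered libraries from their group means correlated at -0.05 to 0.03, so the numbers were not taken as pairs. DESeq2 gave an adjusted p to 0 of the 10 members in silencing, 10 in activation, 5 between the controls and 3 for the difference of effects. Bcl2, Bcl2l2, Bax and Bcl2l11 stayed under 10 counts in every library, and Bid and Bbc3 reached 10 in 1 library each, which limits what could be detected. In mean log2 CPM the sign also changed with a library left out for Bax and Bid in silencing, Bak1 and Bcl2l11 in activation, and Bcl2l1, Mcl1 and Bak1 between the controls.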
